A study of Mus musculus with 20 samples.

Results

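The 12 colon libraries from mice on standard chow were set out by the largest axis of difference among them, and that axis is described here across genes. Each library was placed by its score on the first principal component of log2 CPM (reads of a gene scaled to the same library total), drawn without the genotype labels. Libraries ff 2, Alb 3, Vill 1, Alb 1 and Vill 4 form the low side (5 libraries), and ff 1, ff 3, Alb 4, Vill 2, Alb 2, ff 4 and Vill 3 form the high side (7 libraries). These 12 are part of a series of 20 libraries, of which the other 8 come from a high fat diet and took no part in drawing the axis. The sides were chosen on the expression values themselves, so every difference between them is a description and carries no test.

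Every animal carries the floxed Pcca allele, which encodes a subunit of propionyl-CoA carboxylase, the enzyme that takes propionate into central metabolism. The ff mice carry no named Cre, the Vill mice lack Pcca through Villin-Cre, which is active in the intestinal epithelium, and the Alb mice lack it through Albumin-Cre, which is active in the liver. Each genotype has 4 chow libraries. Chow mice were killed at 9 weeks of age after a fast of 4 hours. The high fat diet mice, 4 ff and 4 Vill, were males kept for 12 weeks on food deriving 60% of its energy from fat, and were killed at 18 weeks after the same fast. Pieces of colon were flushed, frozen and extracted whole, so mucosa, muscle wall, lymphoid tissue and attached fat can all enter 1 library. The labels do not say from which stretch of the colon each piece was cut.

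The mouse colon is not uniform along its length. As background, the caecum and proximal colon take up bile acids and carry enzymes of drug and lipid metabolism, while the distal colon reabsorbs sodium and potassium and holds Insl5 hormone cells. Homeobox (Hox) genes keep a map of position in the adult gut: genes at the front of each cluster are used nearer the mouth, and group 13 genes at the far end. B cells of the colon sit mostly in isolated or aggregated lymphoid follicles, which are scattered and differ in number from piece to piece.

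The first component took 40.3% of the variance over the 19701 genes measured, and the second took 11.7%. The lowest scores were -78.1 in ff 2, -71.0 in Alb 3, -60.7 in Vill 1 and -56.9 in Alb 1. Vill 4, at -31.4, lay just inside the low side, and ff 1, at 12.3, just outside it. The highest score was 89.2 in Vill 3. Both sides hold libraries of all 3 genotypes: 1 of 4 ff, 2 of 4 Vill and 2 of 4 Alb libraries were on the low side.

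**Figure D1:**
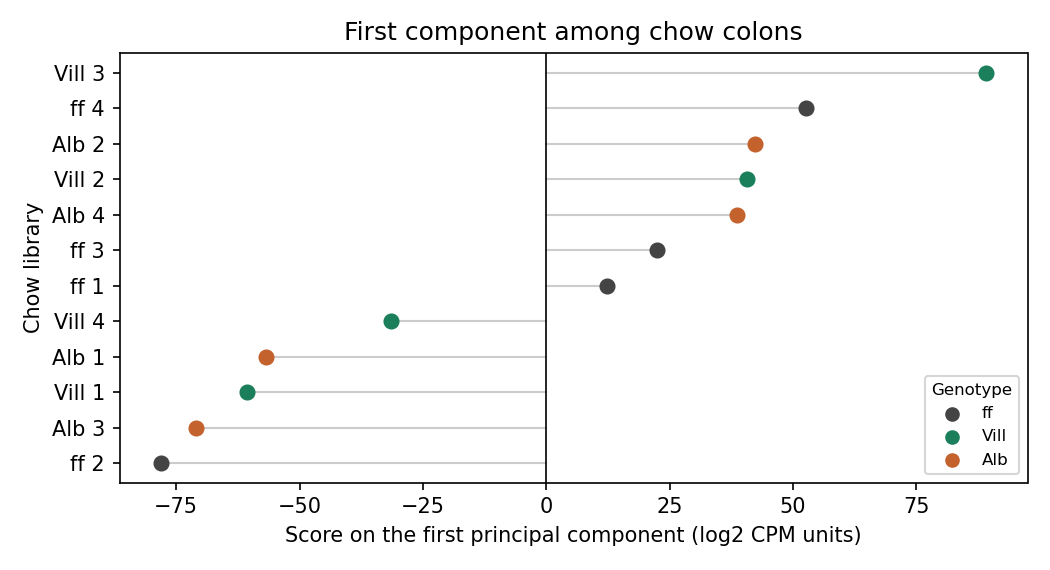
Score of each of the 12 chow libraries on the first principal component (horizontal axis, log2 CPM units), with the library on the vertical axis and the genotype as colour. A line joins each point to 0; the 5 low side libraries lie between -78.1 and -31.4, and the 7 others between 12.3 and 89.2, with all 3 genotypes on both sides.

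No difference between genotypes in position along this axis was detected, and the spread within each genotype was far larger than the differences between their means. The mean score was 2.33 ± 56.3 (SD, n = 4) in ff, 9.41 ± 68.1 (SD, n = 4) in Vill and -11.7 ± 60.6 (SD, n = 4) in Alb. A two-sided exact permutation test over 70 assignments gave p = 0.886 for Vill against ff, 0.886 for Alb against ff and 0.629 for Alb against Vill, each 0.886 after Benjamini-Hochberg adjustment over the 3 pairs. The smallest p that 4 against 4 can give is 0.0286. Over all genes, genotype took 15.0% of the sum of squares of log2 CPM, and the side took a further 36.8%. The side was cut from the first component of these same values, so a large share for it follows from that choice. Any split of the libraries into groups takes some share, and neither share was tested.

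Depth and quality differed somewhat between the sides. Libraries held 27857056 to 33637654 reads on the low side and 30684320 to 40385785 on the high side. Mitochondrial reads were 3.78% to 4.07% and 3.14% to 3.91%. Between 24588 and 25273 genes had a read on the low side and between 25362 and 26391 on the high side, without overlap. All 12 libraries stayed on their sides when every library was thinned to the depth of the smallest, an alternative chosen after the data were seen. Pcca, the targeted gene, lay between 27.7 and 33.6 CPM in the 4 Vill chow libraries and between 38.9 and 58.3 CPM in the ff and Alb libraries, so it was lower in the whole colon of each Vill animal. In edgeR's quasi-likelihood test with the side as a covariate, Pcca was not called. Its adjusted p was 0.551 for Vill against ff and 0.166 for Vill against Alb. Its log2 difference between the sides was -0.04.

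Between the sides, 424 genes were at least 2-fold higher on the low side with no overlap of the libraries (2.15% of the genes measured), and 406 were at least 2-fold lower with no overlap (2.06%). Regardless of size, 1898 genes did not overlap between the sides (9.63%). These shares are the yardstick for the counts of list members below, which the choice of sides also touches. All 424 and all 406 kept their sign when the sides were compared within ff, within Vill and within Alb, as follows from the lack of overlap. The median log2 difference of all genes was -0.03. Log2 differences between the sides are low side minus high side from a fit with genotype as a covariate. Log2 CPM had 2 reads added per gene before logs, and gave the component, the overlap, list means and differences within a genotype.

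Of the genes named here, the highest log2 difference was that of Slc51a. This gene (chr16:32293322-32306697 in mm39, minus strand), which encodes a subunit of the transporter that passes bile acids from the enterocyte to the blood, was at 103 CPM in ff 2, 20.4 in Alb 3, 126 in Vill 1, 2.29 in Alb 1 and 2.41 in Vill 4. On the high side it lay between 0 and 0.49 CPM, with a median of 0.232. The low side mean was 50.9 ± 59.3 CPM (SD, n = 5) against 0.261 ± 0.182 CPM (SD, n = 7), and the fitted log2 difference was 7.69. Its spread within the low side was wide: ff 2, Vill 1 and Alb 3 were far above Alb 1 and Vill 4, which were still above every high side library.

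Slc10a2, the apical transporter that brings bile acids into the cell, showed the same 3 libraries apart. It was at 233 CPM in ff 2, 27 in Alb 3 and 268 in Vill 1, while Alb 1 (4.55 CPM) and Vill 4 (3.14 CPM) lay within the high side range of 0.984 to 10.5 CPM. Slc51b, the partner of Slc51a, was at 41.5, 18.0, 31.3, 18.0 and 20.1 CPM on the low side in the order given above and at 5.51 to 14.0 CPM on the high side. Fabp6, the bile acid carrier of the ileal enterocyte, did not follow them, at 0.729 to 5.24 CPM on the low side and 0.666 to 2.49 CPM on the high side. Slc51b was added after its values were seen.

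Other genes at the higher end included enzymes, transporters and receptors. Cyp2c55, a cytochrome P450 on the list of caecum and proximal colon genes, was at 875 CPM in ff 2, 844 in Alb 3, 1786 in Vill 1, 612 in Alb 1 and 258 in Vill 4. The high side ran from 30.1 to 111 CPM with a median of 73.1, and the log2 difference was 3.53. Its relative Cyp2c65 (4.67), the glucuronosyl transferase Ugt2b5 (5.29), the lipid transporter Abca12 (5.25), the sulphate transporter Slc13a1 (4.64) and the hexokinase-like Hkdc1 (4.54) were all higher without overlap on the log2 scale. So were the intestinal alkaline phosphatase Alpi (4.30), the fatty acid binding protein Fabp2 (3.40), the non-classical class I gene H2-T3 (3.96), the glutamate receptor subunit Grin3a (3.62) and Isx (3.66), a homeobox gene that restrains vitamin A formation in the gut.

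The list of caecum and proximal colon genes had 6 of 6 members higher in log2 difference, 2 of them past 2-fold without overlap, with a median of 0.86 against -0.03 over all genes. Mettl7b (1.53) was the other member past 2-fold, and Mep1a, a brush border protease, had a log2 difference of 1.00 without overlap. Ang4, an antimicrobial protein of the caecum and proximal colon, had the widest range, from 1061 to 3807 CPM on the low side and from 2.72 CPM in Vill 3 to 4876 CPM in ff 1 on the high side. It therefore overlapped between the sides.

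Genes typical of the small intestine were split. Of 15 listed, 11 were measured, with a median of 1.14, and 2 were past 2-fold higher without overlap (Alpi and Fabp2) and 1 lower (Lyz1, -2.29). Sis, sucrase-isomaltase, was at 32.7 CPM in ff 2 and 59.6 CPM in Vill 1 and at 0 to 0.363 CPM in Alb 3, Alb 1 and Vill 4. On the high side it reached 1.19 CPM at most. Lct, lactase, reached 0.417 CPM and Apoa4, an apolipoprotein of the small intestine, 0.192 CPM in any chow library. The mean log2 CPM of the list was 5.11 in ff 2, 3.77 in Alb 3, 4.91 in Vill 1, 2.94 in Alb 1 and 3.26 in Vill 4, against 2.15 to 3.23 on the high side. Lct and Apoa4 were thus at or near 0 on both sides. Sis was at 1.19 CPM or less outside ff 2 and Vill 1, while Alpi and Fabp2 were higher in every low side library.

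Colonocyte genes of the surface epithelium were higher as well. Guca2a, the hormone guanylin, was at 1677, 1942, 1615, 1841 and 1508 CPM on the low side and at 163 to 951 CPM on the high side. Krt20, a keratin of mature surface cells, was at 1756 to 2575 CPM against 478 to 1139 CPM. Car1, a carbonic anhydrase of the proximal colon, was at 4890 CPM in ff 2, 3417 in Alb 3 and 9593 in Vill 1, but at 518 in Alb 1 and 879 in Vill 4, within the high side range of 486 to 1443 CPM. The absorptive colonocyte list had a median of 1.01, with 3 of 10 members past 2-fold higher without overlap, while Slc26a3 (-0.54), Car2 (-0.62) and Car4 (-0.30) had log2 differences below 0.

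The epithelial list as a whole had a median of 0.38, less than the regional lists above and below. Vil1, whose promoter drives the Villin-Cre, was at 972 to 1330 CPM on the low side and 620 to 892 CPM on the high side. Cdx2, the homeobox factor that sets intestinal identity, was at 281 CPM in ff 2, 217 in Alb 3, 313 in Vill 1, 216 in Alb 1 and 197 in Vill 4. The high side ran from 24.3 CPM in Alb 2 and 28.2 CPM in Vill 3 to 148 CPM in ff 1, with a median of 92.4, and the log2 difference was 1.77.

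Hox genes marked both ends. Hoxb8 (chr11:96172731-96176141 in mm39, plus strand) was at 13.1 CPM in ff 2, 10.5 in Alb 3, 40.5 in Vill 1, 2.36 in Alb 1 and 1.76 in Vill 4. The high side ran from 0.253 to 1.26 CPM with a median of 0.376, without overlap, and the log2 difference was 4.58. Hoxb13 (chr11:96085142-96088273 in mm39, plus strand), at the other end of the same cluster, was at 7.51, 18.9, 0.579, 80.5 and 134 CPM in those 5 libraries. On the high side it lay between 190 CPM in ff 1 and 475 CPM in Alb 2, with a median of 296, also without overlap, and the log2 difference was -3.11. Low side means were 13.6 ± 15.8 CPM for Hoxb8 and 48.2 ± 57.3 CPM for Hoxb13 (SD, n = 5).

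Along the Hoxb cluster the difference was 1.47 for Hoxb2, 2.80 for Hoxb3, 2.54 for Hoxb4, 2.72 for Hoxb5, 4.00 for Hoxb6, 3.45 for Hoxb7 and 4.58 for Hoxb8. It was 0.19 for the next gene, Hoxb9, and -3.11 for Hoxb13. The Hoxd cluster turned in the same way, with 2.87 for Hoxd3, 2.95 for Hoxd4, 1.86 for Hoxd8, 0.30 for Hoxd9, -1.63 for Hoxd10, -1.68 for Hoxd11, -1.76 for Hoxd12 and -3.77 for Hoxd13. Hoxd13 was at 0.251 CPM in ff 2, 0 in Alb 3 and in Vill 1, 7.19 in Alb 1 and 42.8 in Vill 4, and at 9.60 to 151 CPM on the high side, so Vill 4 overlapped. The Hoxa cluster differed little: Hoxa13 was at 32.8 to 68.7 CPM and 46.9 to 69.6 CPM, and of the measured Hoxa genes only Hoxa11 (1.77) differed past 2-fold without overlap. Hoxb9, Hoxd9 and Hoxa9 were added after their values were seen.

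By list, 7 of 16 measured anterior Hox genes were past 2-fold higher without overlap and none lower, with a median of 2.20. Of 8 measured posterior Hox genes 1 was past 2-fold lower without overlap (Hoxb13) and 1 higher (Hoxa11), with a median of -1.66. The posterior median was -0.32 within ff, -0.64 within Vill and -3.25 within Alb. The Alb value includes Alb 2, which had the highest Hoxd10 to Hoxd13 levels of all 12 libraries. Over both sides the posterior median was -0.99 without Alb 2 and -1.07 without Alb 3.

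**Figure D2:**
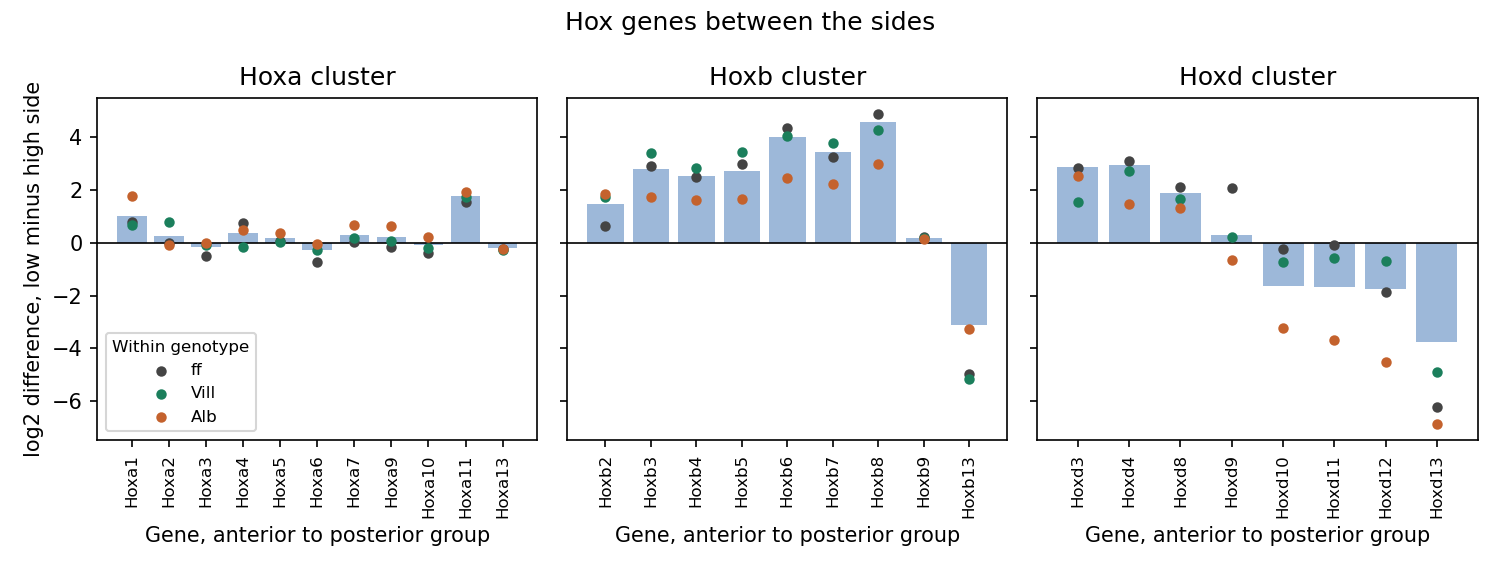
Log2 difference between the sides (low minus high, vertical axis) for each measured gene of the Hoxa, Hoxb and Hoxd clusters, ordered by group number. Bars are the fit over 12 libraries, and points the difference within ff, Vill and Alb; Hoxb2 to Hoxb8 lie above 0, from 1.47 to 4.58, and Hoxb13 at -3.11.

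The promoters of Hoxb8 and Hoxd13 are shown because these genes stand near opposite ends of the Hox pattern. Both are the 250 bases before the gene's start in RefSeq, on GRCm38.p6, which is an older build than mm39. Capitals mark TTTAT on either strand, a core that Cdx-type homeobox proteins are known to bind, with overlapping matches merged. The motif was chosen with these sequences in view.
Hoxb8: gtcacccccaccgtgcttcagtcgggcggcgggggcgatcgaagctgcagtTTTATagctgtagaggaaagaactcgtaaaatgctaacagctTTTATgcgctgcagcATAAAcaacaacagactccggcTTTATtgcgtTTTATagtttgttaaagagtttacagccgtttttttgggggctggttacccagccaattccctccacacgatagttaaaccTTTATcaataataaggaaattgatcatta
Hoxd13: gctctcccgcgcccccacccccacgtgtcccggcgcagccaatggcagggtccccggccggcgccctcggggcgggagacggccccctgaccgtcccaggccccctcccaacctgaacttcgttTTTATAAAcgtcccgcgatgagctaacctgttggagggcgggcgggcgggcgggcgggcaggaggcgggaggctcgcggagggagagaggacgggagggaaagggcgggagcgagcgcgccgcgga
The Hoxb8 stretch is chr11:96281655-96281904 on the plus strand and holds 6 matches. The Hoxd13 stretch is chr2:74667975-74668224 on the plus strand and holds 2 overlapping matches. Each gene with a promoter in the table was scored by its promoter with the most matches. At least 5 matches were found for 1.1% of the 27025 genes scored. Among genes higher on the low side this was 2 of 324, and among those lower on it 0 of 269. At least 1 match was found for 41.1% of the genes scored. The share was 34.0% for those higher on the low side and 47.2% for those lower on it. A match describes letters and not a bound site.

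Genes of the distal colon epithelium led the lower end. Slc37a2 (chr9:37138881-37167034 in mm39, minus strand), a sugar phosphate exchanger, was at 2.83 CPM in ff 2, 2.21 in Alb 3, 1.74 in Vill 1, 35.6 in Alb 1 and 149 in Vill 4. On the high side it was at 232 CPM in ff 1 and up to 1356 CPM in Vill 3, with a median of 955. The means were 38.3 ± 63.7 CPM (SD, n = 5) and 944 ± 387 CPM (SD, n = 7), with a log2 difference of -5.49. The order of its levels on the low side was that of Hoxb13 apart from small differences among the lowest 3 libraries, with Alb 1 and Vill 4 between the extremes.

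Atp12a, the colonic proton and potassium pump, was at 12.4, 13.5, 2.57, 51.4 and 272 CPM on the low side and at 473 to 1678 CPM on the high side. Fxyd4, a regulator of the sodium pump, was at 0.363 CPM or less in ff 2, Alb 3, Vill 1 and Alb 1, at 23.6 CPM in Vill 4, and at 2.26 to 179 CPM on the high side. Scnn1g, a subunit of the epithelial sodium channel, reached 5.48 CPM on the low side and ran from 2.62 to 34 CPM on the high side. Of 8 measured genes of the distal list, all had a log2 difference below 0 and 4 were past 2-fold lower without overlap, with a median of -2.71. Alb 2 had the highest Atp12a, Fxyd4 and Scnn1g of all 12 libraries.

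Ly6g, best known as a neutrophil surface marker, was at 3.34 to 59.7 CPM on the low side and 79.7 to 218 CPM on the high side. It was the only one of 4 neutrophil list genes with enough reads to be measured, and the other 3 had too few reads in every group. St8sia5, a sialyltransferase, was at 0.0942 CPM or less in 4 low side libraries, at 8.16 CPM in Vill 4 and at 13.7 to 46.7 CPM on the high side. Ano1, a chloride channel that marks interstitial cells of Cajal and is also made elsewhere, was at 76.6 to 257 and 277 to 401 CPM, while Kit, the other classical marker of those cells, had a log2 difference of 0.32.

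Hormone genes of the enteroendocrine cells differed in opposite directions. Insl5, the distal hormone, was at 8.13, 7.36, 4.53, 10.4 and 27.7 CPM on the low side and 44.9 to 126 CPM on the high side. Pyy, peptide YY, was at 20.3 to 32.4 CPM against 36.6 to 98.8 CPM. Nts, neurotensin, was at 32.4 CPM in ff 2, 7.84 in Alb 3, 40 in Vill 1, 0.417 in Alb 1 and 2.15 in Vill 4, and at 0 to 0.55 CPM on the high side. Sst, somatostatin, was at 28.1 to 52 CPM against 5.91 to 13.6 CPM, and Sct, secretin, at 3.79 to 19.3 CPM against 1.29 to 3.44 CPM. The general marker Chga had a log2 difference of 0.31 and the proglucagon gene Gcg one of -0.14.

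**Figure D3:**
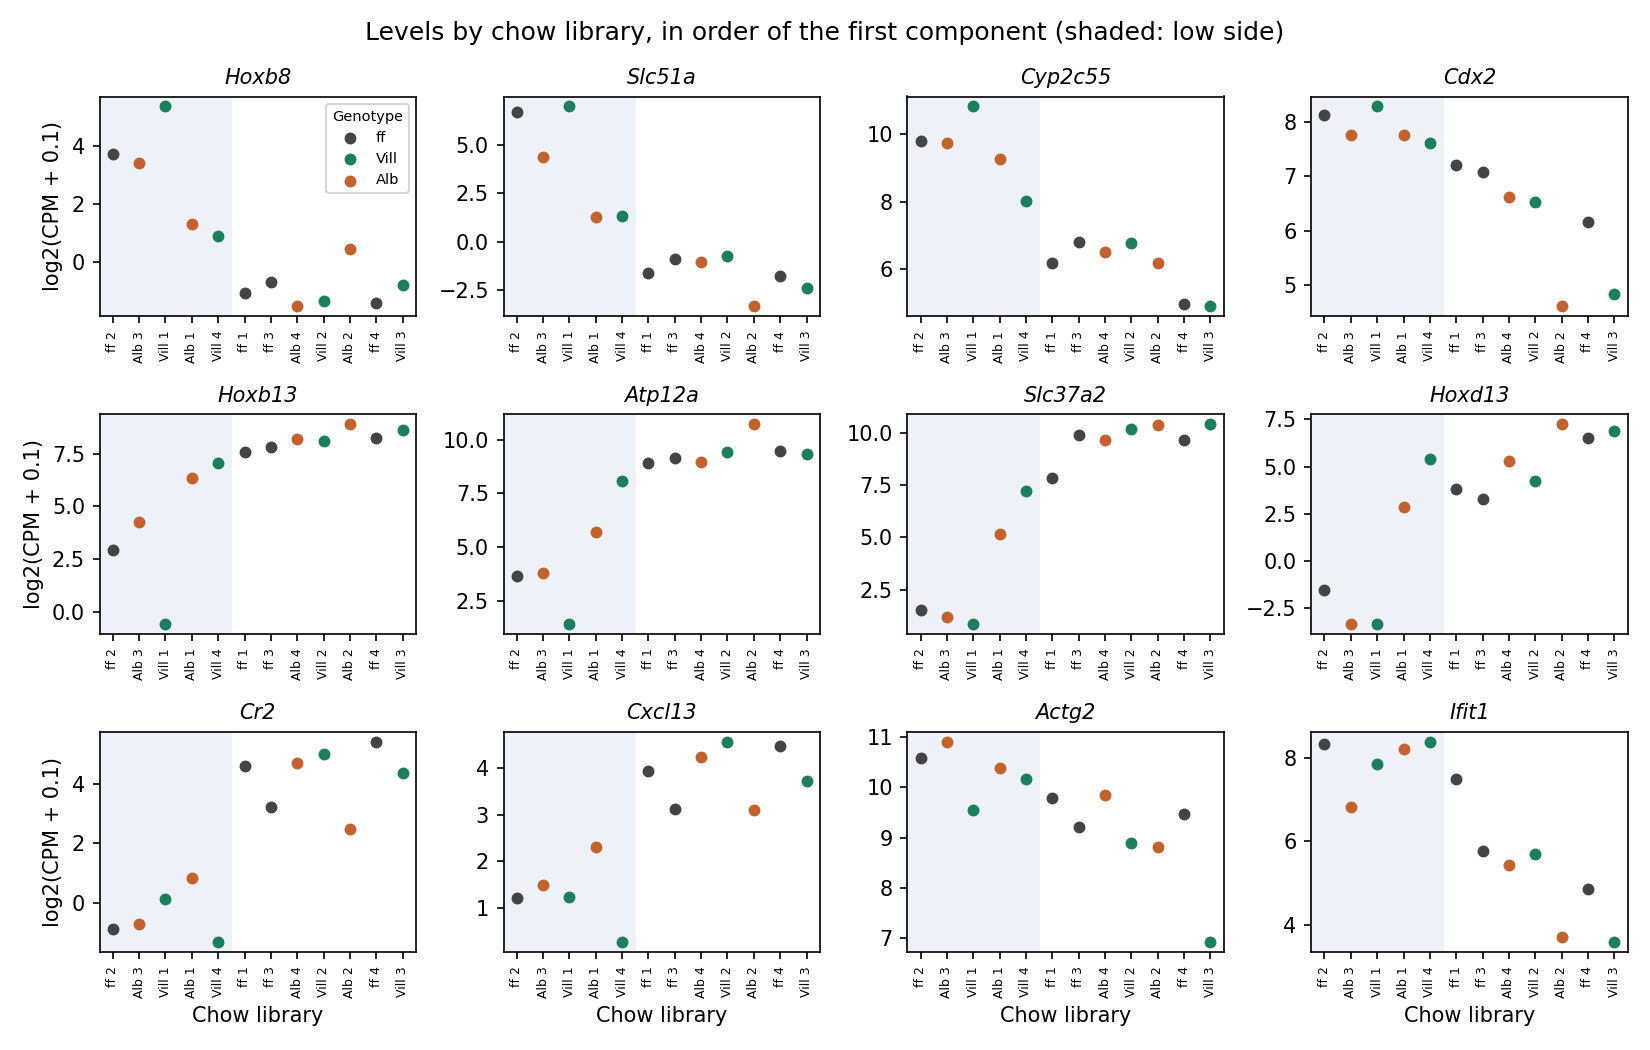
Level of 12 genes, as log2 of CPM plus 0.1 (vertical axes), in each chow library in the order of its score on the first component (horizontal axes), with genotype as colour and the low side shaded. Hoxb8, Slc51a and Cyp2c55 are higher in every low side library, Hoxb13, Atp12a and Slc37a2 are lower there, and Alb 1 and Vill 4 lie between the extremes for most of these.

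B cell genes were lower on the low side throughout. All 8 listed genes were measured and all 8 were past 2-fold lower on the low side without overlap, with a median of -4.53. Cr2 (chr1:194819119-194859024 in mm39, minus strand), complement receptor 2, was at 0.44 CPM in ff 2, 0.508 in Alb 3, 0.996 in Vill 1, 1.67 in Alb 1 and 0.306 in Vill 4. The high side ran from 5.51 CPM in Alb 2 to 42.0 CPM in ff 4 with a median of 23.96. The log2 difference was -4.81, from means of 0.783 ± 0.558 CPM (SD, n = 5) and 22.7 ± 12.6 CPM (SD, n = 7). In bulk tissue, fewer cells of a type and less RNA per cell cannot be told apart.

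Other B cell genes among the largest differences were Fcmr (-5.14), the IgM receptor, and Fcer2a (-4.78), the low affinity IgE receptor. Ighd (-4.69), the heavy chain of naive B cells, Pax5 (-4.65), the factor that sets B cell identity, Ms4a1 (-4.42), Cd22 (-4.22) and H2-Ob (-4.20) followed. Unlike Hoxb13 and Slc37a2, these genes did not put Vill 4 between the extremes: Cr2, Fcmr and Pax5 were lowest in Vill 4. Alb 1 had the highest mean log2 CPM of the B cell list on the low side, 0.341 against -0.516 to 0.097 in the other 4, and the lowest on the high side was 2.11 in Alb 2. Chst3 (-4.42), a chondroitin sulphotransferase, was at 0.23 to 1.03 CPM against 2.93 to 24.7 CPM.

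Genes of the follicle itself differed in the same direction, with 5 of 6 past 2-fold lower without overlap and a median of -3.02. Cxcl13, the chemokine that draws B cells into follicles, was at 2.23, 2.72, 2.25, 4.83 and 1.11 CPM on the low side and 8.47 to 23.6 CPM on the high side. Its receptor Cxcr5 was at 0.29 to 1.54 CPM against 1.93 to 14.3 CPM. The T zone chemokine Ccl19 had a log2 difference of -4.39. Ccr7 (-2.81) overlapped between the sides.

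Other immune groups differed less. Plasma cell genes had a median of -0.86, with 0 of 6 past 2-fold without overlap: Igha was at 666 to 2138 CPM and 944 to 3511 CPM. T cell genes had a median of -0.49, with 6 of 8 below 0 and 0 past 2-fold without overlap: Cd2 was at -1.60, Cd4 at -1.47 and Trac at -0.88, while Cd8a was at 1.19. Macrophage genes had a median of -0.58, with Lyz2, lysozyme, past 2-fold lower without overlap (59 to 88.1 CPM against 155 to 254 CPM). MHC class II genes had a median of -0.68.

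Muscle wall genes were higher on the low side and overlapped. All 16 smooth muscle genes had a log2 difference above 0, with a median of 1.04, but only Mylk, the myosin light chain kinase, was past 2-fold without overlap. Actg2, the enteric smooth muscle actin, was at 1528 CPM in ff 2, 1914 in Alb 3, 752 in Vill 1, 1330 in Alb 1 and 1150 in Vill 4. On the high side it ran from 122 CPM in Vill 3 to 917 CPM in Alb 4, with a median of 589, so Vill 1 overlapped. All 13 neuronal genes (median 1.24) and all 6 glial genes (median 0.88) were on the same side of 0, led by Gal, the neuropeptide galanin (2.25), and Gfap (1.5), an intermediate filament of glia.

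Rgs5, a pericyte gene that smooth muscle also makes, was at 283 to 714 CPM against 37.5 to 176 CPM, while Pdgfrb, another pericyte gene, had a log2 difference of -0.20. Fibroblast (median -0.17) and blood vessel genes (median -0.31) differed little. Adipocyte genes had a median of 2.58, with 7 of 7 measured above 0 and 1 past 2-fold without overlap. This median was 4.51 within ff, 1.90 within Vill and 3.25 within Alb, and 3.96 without Vill 2. Plin1, the coat protein of fat droplets, was at 11.1 CPM in ff 2, 9.54 in Alb 3 and 12.6 in Vill 1, but at 1.25 in Alb 1 and 0.0766 in Vill 4, and it reached 3.35 CPM on the high side, in Vill 2. Cidec, which Plin1 works with, was the member without overlap (15.2 to 51.9 CPM against 0.279 to 9.71 CPM).

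The side of the axis therefore moved with regional, lymphoid and muscle genes together. The part of any of these in the differences of the others was not tested. They differed between the same sides, but their order within the low side was not the same. By mean log2 CPM, Vill 1 had the lowest posterior Hox (0.602) and the lowest smooth muscle genes (6.94) of the low side. Vill 4 had the highest posterior Hox (4.26) and the lowest B cell genes (-0.516) there. Genes of dividing cells did not differ in common: the median was -0.05 over 20 cell division genes, none past 2-fold without overlap. Crypt stem cell and Wnt genes had a median of -0.51, with 11 of 11 below 0 and none past 2-fold without overlap. Oxidative phosphorylation (0.13) and unfolded protein response genes (-0.08) were close to the median of all genes. None of the 7 pancreatic acinar genes had enough reads to be measured.

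**Figure D4:**
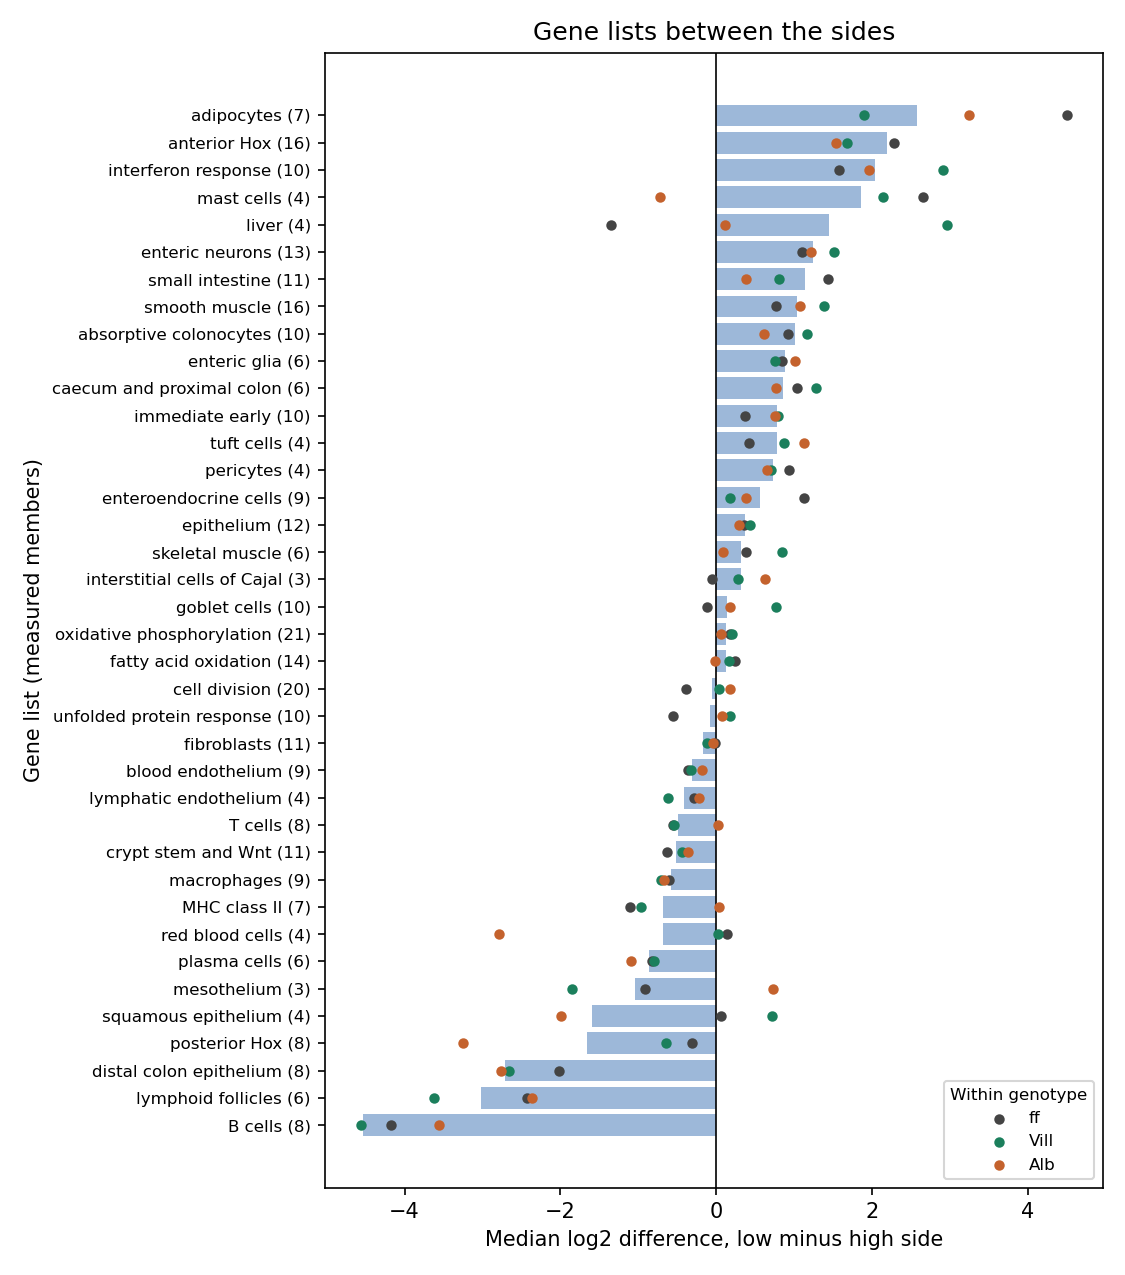
Median log2 difference between the sides (horizontal axis) for each gene list with at least 3 measured members, with that number in brackets. Bars are the fit over 12 libraries and points the difference within ff, Vill and Alb; B cell genes lie lowest at -4.53 and adipocyte genes highest at 2.58.

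Interferon response genes were higher on the low side, with 10 of 10 above 0, 2 past 2-fold without overlap (Rsad2 and Irf7) and a median of 2.05. Ifit1, an antiviral RNA-binding protein, was at 326 CPM in ff 2, 114 in Alb 3, 233 in Vill 1, 297 in Alb 1 and 335 in Vill 4. On the high side it ran from 12 CPM in Vill 3 to 179 CPM in ff 1 with a median of 43.3, so Alb 3 overlapped with ff 1. Isg15, a ubiquitin-like protein, was at 45.2 to 148 CPM against 4.84 to 75.5 CPM, and Rsad2, viperin, at 67.2 to 116 CPM against 6.15 to 61.0 CPM. Alb 1 and Vill 4 were among the highest libraries, unlike for Slc51a and Hoxb8.

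The promoters of this group are shown because its genes share a known element, the interferon stimulated response element, searched as GAAA, any 2 bases and GAAA again, on either strand, with overlapping matches counted. This motif too was chosen with promoter sequences in view. Of 7 interferon list genes with a promoter in the RefSeq table, 5 held the motif in the 250 bases before the start. Over all genes of that table the share was 3.46%. The motif was found for 16 of 324 genes higher on the low side (4.94%) and for 12 of 269 lower on it (4.46%). The stretch around the motif is given on GRCm38.p6, with the matches in capitals.
Ifit1: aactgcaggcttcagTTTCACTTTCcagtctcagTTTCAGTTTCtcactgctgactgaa
Ifit3: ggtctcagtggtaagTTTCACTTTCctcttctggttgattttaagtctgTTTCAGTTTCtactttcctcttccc
Isg15: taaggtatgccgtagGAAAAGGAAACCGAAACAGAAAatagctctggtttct
Oas1a: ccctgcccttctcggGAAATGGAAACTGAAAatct
Rsad2: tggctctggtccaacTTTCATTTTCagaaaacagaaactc
They lie at chr19:34640770-34640828 (plus strand) for Ifit1, chr19:34583358-34583431 (plus) for Ifit3, chr4:156200860-156200911 (minus) for Isg15, chr5:120907526-120907560 (minus) for Oas1a and chr12:26456548-26456587 (minus) for Rsad2. Log2 differences of these genes were 2.74, 2.07, 2.37, 0.99 and 2.28 in that order. The motif is a property of the list and says nothing of a factor's activity in these colons.

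Some libraries stood out on their own side. Alb 2 alone held squamous keratins, with Krt5 at 39.7 CPM and Krt14 at 35.1 CPM, against 0.44 and 1.76 CPM at most in the other chow libraries. It also had the highest Hoxb13 and Hoxd13 and the lowest Cr2 of the high side. Without it the squamous median went from -1.59 to 0.341 and the other lists named above kept their direction. Vill 3, at the far end of the axis, had the lowest smooth muscle genes of all 12 libraries, with Actg2 at 122 CPM, and the lowest Ang4, at 2.72 CPM.

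The 8 high fat diet libraries had no part in choosing the axis. All 12 chow libraries held reads of Xist (22486 to 59322), which is made in females, and 0 of the Y-linked Ddx3y, while the high fat diet libraries held 1458 to 2756 Ddx3y reads, so sex, age and diet cannot be told apart between the 2 sets. The high fat diet counts were scaled in their own table, so these levels are read against one another. Those libraries held 16881567 to 24423757 reads, with mitochondrial reads of 9.75% in ff 1 and 6.55% in ff 3 and 4.5% to 6.98% in the others; the part of this in the levels was not tested. The same genes set 2 of these libraries apart. Hoxb8 was at 46.5 CPM in ff 1 and 38.6 CPM in ff 3, and at 0.266 to 1.47 CPM in the other 6. Slc51a was at 241 and 195 CPM there and at 0.0532 to 4.90 CPM elsewhere, and Hoxb13 at 0 and 0.351 CPM against 65.7 to 279 CPM.

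On the chow component the scores were -47.9 in ff 1, -42.0 in ff 3, -18.8 in Vill 1, -11.4 in Vill 2, 5.31 in ff 4, 31.1 in Vill 4, 39.9 in ff 2 and 43.9 in Vill 3. Each gene was first centred on its mean over the 8 high fat diet libraries, and only genes measured in both sets were used. These scores are read against one another and not against the chow scores. At the far end were ff 2 and Vill 3, where Slc37a2 was at 426 and 977 CPM and Atp12a at 715 and 646 CPM. The remaining 4 lay between for several genes, Vill 4 nearest to the far end by its score, with Slc37a2 at 8.32 to 44.8 CPM, Hoxb13 at 65.7 to 149 CPM and Cyp2c65 at 48.5 to 136 CPM. Of 424 genes higher and 406 lower on the chow low side, 384 and 355 were measured here. The mean of the first set, centred on its mean over the 8 libraries in log2 CPM, was 1.02 in ff 1, 1.05 in ff 3, 0.51 in Vill 1, 0.09 in Vill 2, -0.08 in ff 4, -0.66 in Vill 4, -0.91 in ff 2 and -1.03 in Vill 3. The mean of the second set was -1.39, -0.99, -0.39, -0.48, 0.30, 0.69, 1.15 and 1.10 in the same order.

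B cell genes ran largely in the order of the score. The mean log2 CPM of the B cell list was -2.16 in ff 1, -0.61 in ff 3, 0.61 in Vill 1, -1.22 in Vill 2, 3.30 in ff 4, 4.14 in Vill 4, 3.76 in ff 2 and 2.97 in Vill 3. Cr2 was at 0.52 and 0.53 CPM in ff 1 and ff 3, 1.36 in Vill 1, 0.368 in Vill 2 and 10.3 to 24.2 CPM in the other 4. Ifit1 was at 16.1 CPM in ff 1, 82.4 in ff 3 and 100 in Vill 4, and at 5.67 to 21.4 CPM in the other libraries. Actg2 was at 583 and 573 CPM in ff 1 and ff 3, 769 in Vill 1, and lowest in Vill 4 at 149.

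**Figure D5:**
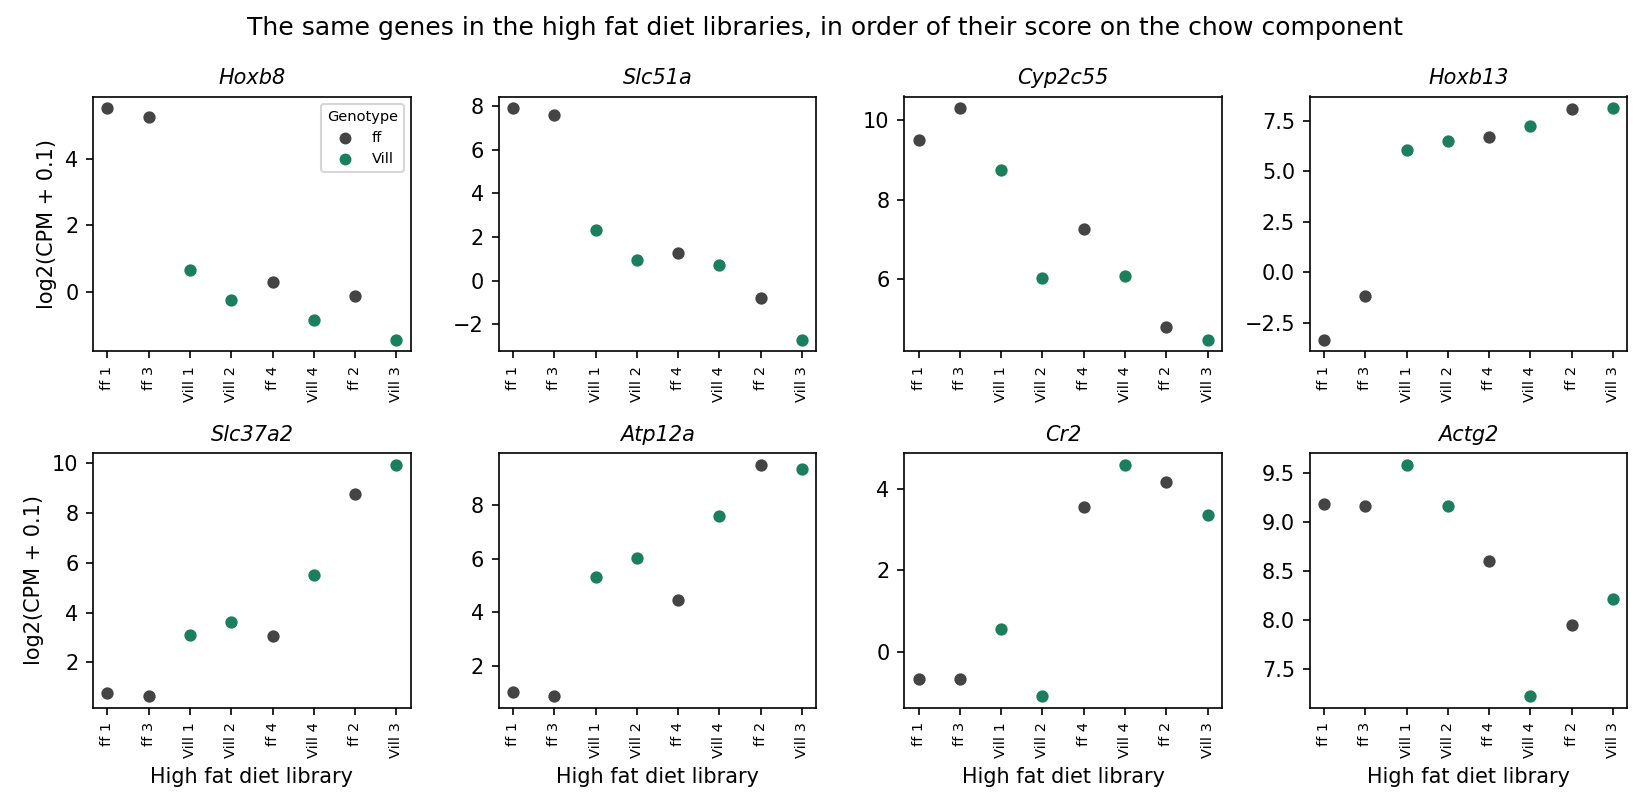
Level of 8 genes, as log2 of CPM plus 0.1 (vertical axes), in the 8 high fat diet libraries in the order of their score on the chow component (horizontal axes), with genotype as colour. Libraries ff 1 and ff 3 hold the highest Hoxb8 and Slc51a and the lowest Hoxb13. Cr2 is lowest in Vill 2, at 0.368 CPM, and Actg2 in Vill 4, at 149 CPM.

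With the side as a covariate, the genotype comparisons could be made on counts less spread by the axis: the common coefficient of variation went from 0.380 to 0.273. The side was drawn from the same counts, so these tests are not free of the outcome. With edgeR's quasi-likelihood test and Benjamini-Hochberg adjustment, 1 of 19701 genes was called between Vill and ff (0.00508%), 4 between Alb and ff (0.0203%) and 1 between Vill and Alb (0.00508%). None of these is among the 830 genes that separated the sides. Without the side the numbers were 1 (0.00508%), 0 (0%) and 1 (0.00508%). At an unadjusted p under 0.05 in edgeR, a share of 0.05 of the 19701 genes passes by chance alone. Without the side, 374 genes passed for Vill against ff, 867 for Alb against ff and 1748 for Vill against Alb. With the side these were 1764, 1824 and 2926.

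The gene called for Vill was the predicted model Gm45774, at 51.3 to 89.4 CPM in the 4 Vill chow libraries and at 0 to 0.398 CPM in the other 8. The 4 genes called for Alb were lower: Idi1 (log2 -1.01, SE 0.118, adjusted p = 0.0471), Cyp51 (-1.13, SE 0.150), Msmo1 (-0.82, SE 0.108) and Sult2b1 (-0.69, SE 0.0928), the last 3 each at an adjusted p of 0.0498 in edgeR. SE here was worked back from the test, as the size of the log2 difference over the square root of edgeR's F statistic. Idi1, Cyp51 and Msmo1 encode enzymes of cholesterol synthesis, and Sult2b1 a sulphotransferase of cholesterol. These 4 calls sit at the threshold: leaving out any 1 library left 0 to 2 calls. The counts of all 3 comparisons were larger with DESeq2. Of the 19701 genes measured it called 33 for Vill against ff, 68 for Alb against ff and 717 for Vill against Alb. The edgeR counts were 1, 4 and 1, so the number of genes called, above all for Vill against Alb, depends on the test.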

How the data were processed

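RNA was measured from 20 mouse colon libraries in 5 groups of 4 animals. Read counts per gene are the deposited values, per the file headers. Per the submitters' processing notes, the genome was mm39 and the tools were edgeR 3.22.5, DESeq2 1.20.0, featureCounts 1.5.0-p3 and HISAT2 2.0.5. The annotation release is not given in the sources used here, nor whether libraries keep strand, so reads of overlapping genes on opposite strands may not be separated. Another 28 per-sample columns were not used. Of 56748 genes listed, 22157 had no chow read and 19701 passed edgeR's default expression filter.

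CPM were scaled by TMM in edgeR 4.0.16 (R 4.3.3), and the side was fitted with genotype as covariate. The 3 genotype tests used edgeR's quasi-likelihood test at an adjusted p under 0.05; the alternatives were limma-voom from limma 3.58.1, and DESeq2 1.42.0. The code was tested on simulated counts. Named genes were the 12 largest non-overlapping differences in each direction at a mean of 5 CPM or more, up to 4 members per list at 2 CPM or more, Pcca, Vil1, Alb, and genes called for genotype; other genes were named after their values were seen. The axis, its members, the 40 lists and the tests were chosen with earlier results of these data known. Replicate numbers showed no sign of pairing samples: 4 of 12 same-number correlations were over 0.1, against 16 of 36 between different numbers. Promoters came from RefSeq. A few genes are not reported here by name.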

Additional observations from a re-analysis of the deposited data

Results flagged for a closer look

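Of 79 groups of libraries checked for 1 library far from the rest, 10 stood out, and chance alone flags about 1 in 20. Values are means of log2 CPM over the list. Vill 3 had the lowest smooth muscle (5.07, next lowest 6.70), enteric neuron (1.51), enteric glia (0.197), pericyte (3.44) and anterior Hox means (0.292) of the high side and the highest crypt and Wnt mean (5.39). Vill 1 had the lowest enteric glia (0.767) and macrophage means (3.17) of the low side. Alb 2 had the highest squamous mean of the high side (3.72, next highest -0.53). Alb 3 had the lowest interferon mean of the low side (5.68, next lowest 6.85).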

How the results depend on the processing

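All 12 libraries stayed on their side under each alternative scaling, filter, prior count and gene set tried, with the listed genes left out, and after thinning (11 of 11 with any library left out). The component took 28.5% of the variance with no expression filter and 56.3% over the 500 most variable genes. Counts past 2-fold were 641 higher and 621 lower at a 1.5-fold limit, 1515 and 1633 within ff, 1478 and 1339 within Vill, and 1501 and 1218 within Alb, where fewer libraries must not overlap. Leaving out 1 library gave 425 to 816 higher, the most without Vill 1, and 399 to 580 lower.

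Of 380 list medians recomputed, 340 stayed within the spread between libraries. Centred on epithelial genes, medians were 0 for epithelium, -0.0603 for interstitial cells of Cajal, -0.55 for fibroblasts, -0.68 for blood and -0.79 for lymphatic endothelium, 0.36 for pericytes, -0.95 for macrophages, 0.40 for tuft cells, 0.63 for absorptive colonocytes, -0.89 for crypt and Wnt, -0.43 for cell division, -0.24 for oxidative phosphorylation, -0.24 for fatty acid oxidation, -0.46 for unfolded protein response and 0.41 for immediate early genes. This shift is the epithelial median itself. Within ff they were -0.0523 for interstitial cells of Cajal, 1.13 for enteroendocrine cells, -0.32 for posterior Hox, -1.35 for liver, 0.057 for squamous epithelium, -0.56 for unfolded protein response and 0.37 for immediate early genes. Within Vill they were 0.85 for skeletal muscle, 1.69 for anterior Hox, 2.97 for liver, 0.71 for squamous epithelium and 2.92 for interferon response. Within Alb they were 0.62 for interstitial cells of Cajal, 0.74 for mesothelium, -3.56 for B cells, -0.72 for mast cells, -2.79 for red blood cells, 0.62 for absorptive colonocytes, -3.25 for posterior and 1.54 for anterior Hox, 0.38 for small intestine, 0.11 for liver and 0.0422 for MHC class II. Oxidative phosphorylation was 0.0402 with library size only, and skeletal muscle -0.21 with no filter. Leaving out 1 library gave 0.838 to 2.40 for mast cells (lowest without ff 2), 1.88 to 2.75 for anterior Hox and -1.96 to 0.341 for squamous epithelium (highest without Alb 2). It also gave 2.10 to 3.96 for adipocytes (3.70 with limma-voom), -2.23 to -0.985 for posterior Hox (-0.99 without Alb 2, -1.07 without Alb 3), -0.64 to -0.18 for T cells (-0.18 without Alb 4) and -0.40 to -0.19 for blood endothelium (-0.19 without Vill 2). Mesothelium (-1.62 to 0.23), fibroblast (-0.23 to 0.06), cell division (-0.17 to 0.11) and unfolded protein response medians (-0.14 to 0.17) changed sign. The causes were not tested.

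Genes called with no expression filter were 74 for Vill against ff, 103 for Alb against ff and 615 for Vill against Alb, and with DESeq2 33, 68 and 717. For Alb against ff, 1 was called with DESeq2 size factors, 1 with the component score as covariate, 1 with the replicate block added, and 0 with no side covariate. The block changed no other count. Leaving out 1 library gave 1 to 1, 0 to 2 and 1 to 225 calls in the order above, the 225 without Vill 2 and 2 without Alb 4. Differences in score between genotypes, in SD units, ran from -0.437 to 0.555 for Vill against ff, -0.789 to 0.132 for Alb against ff and -0.855 to 0.184 for Alb against Vill, each changing sign. Depth limits genes under about 1 CPM, where few reads stand behind a value.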
